A study of Mus musculus with 7 samples.

Results

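SLIT proteins are secreted guidance ligands, ROBO (roundabout) proteins are their transmembrane receptors, and the srGAP proteins are cytoplasmic adaptors that bind ROBO tails and act on the actin cytoskeleton. The genes described here are the ligands Slit1, Slit2 and Slit3, the receptors Robo1, Robo2, Robo3 and Robo4, and the adaptors Srgap1 and Srgap2. These 9 genes were found by name among 55487 gene identifiers counted in mouse ovary, and 9 of the 9 passed the filter on low counts that kept 18779 genes. The set was chosen by what an earlier comparison of these same libraries had shown, since Robo1 is among the genes that the study called upregulated, so the differences between groups in these 9 genes are given as a description, and their calls are counted only beside the share over all genes.

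RNA sequencing was performed on whole ovaries of C57BL/6J females at postnatal day 60 in diestrus, with 3 CNTR and 4 PAMH F3 libraries. Pregnant founder (F0) dams of the PAMH line received human recombinant anti-Müllerian hormone (AMH) at 0.12 mg/kg/day from E16.5 to E18.5, the last days of gestation. The PAMH F3 mice are the generation 3 offspring of those dams, and neither they nor their parents were injected. Dams of the CNTR group received PBS over the same days and, by the study's account, the CNTR mice were the direct offspring of these dams, so descent from AMH-treated dams and the number of generations since injection cannot be told apart. The labels give the injections as subcutaneous and the study's text as intraperitoneal. PAMH mice are used as a model of polycystic ovary syndrome (PCOS), in which hyperandrogenism and rare ovulation go together.

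SLIT-ROBO signalling was first described as a repulsive cue that keeps growing axons from crossing the midline, and it also guides migrating cells and sprouting vessels. Binding of a SLIT to a ROBO recruits srGAPs, adaptor proteins and kinases that reshape the actin cytoskeleton, and heparan sulfate chains strengthen the binding. In the ovary, members of the family are known to be expressed in follicles, in stroma and in the corpus luteum, the body that a follicle forms after ovulation.

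Total gene counts were between 32158174 and 35485021 per library. Ovarian cell types were present by their markers in every library, with summed granulosa cell markers between 2286 and 3492 CPM (gene counts scaled to library size) and summed oocyte markers between 226 and 367 CPM. Oviduct epithelium was present too, with Ovgp1, the oviductal glycoprotein, between 2394 and 6172 CPM. The theca hormone Insl3 had at most 5 counts in a library, and Sox10, a Schwann cell marker, at most 3. CNTR replicate 2 stood apart in base composition, with a rise of 0.32 in log2 CPM for each 10% of GC content, against -0.13 to 0.05 in the other libraries. All values below are CPM scaled by the trimmed mean of M-values (TMM), and in whole-ovary RNA fewer cells of a type and less RNA per cell cannot be told apart.

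Slit2 and Slit3 each carry a microRNA inside the gene, and its sequence is shown because it links the ligand genes to the receptor genes by base pairing. The hairpin Mir218-1 lies inside Slit2 and Mir218-2 inside Slit3, both on the strand of their host. Both give the same 5′ mature product, at chr5:48223966-48223986 and chr11:35616840-35616860 (RefSeq, GRCm38.p6), printed with its seed, bases 2 to 8, in capitals.
mmu-miR-218-5p: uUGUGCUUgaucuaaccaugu
Neither hairpin gene had a count in any of the 7 libraries, which were made from poly(A) RNA and do not measure mature microRNAs. The 7 letters AAGCACA, the reverse complement of the seed, were searched on the transcript strand in the 3′ UTR of the transcript with the longest coding sequence (GENCODE M21, mm10). They were found in 5 of the 9 members. Each match is printed with its neighbouring bases, with the 7 letters in capitals.
Robo1, site at base 986 of the 3′ UTR, chr16:73045340-73045362, plus strand: ggttttaaAAGCACAatcactaa
Robo2, site at base 461 of the 3′ UTR, chr16:73895351-73895373, minus strand: ttggtgatAAGCACAaatctcta
Robo2, site at base 2787 of the 3′ UTR, chr16:73893025-73893047, minus strand: gcagacccAAGCACAgcttcttt
Robo3, site at base 137 of the 3′ UTR, chr9:37416237-37416259, minus strand: actcactgAAGCACActgtctac
Slit2, site at base 302 of the 3′ UTR, chr5:48304535-48304557, plus strand: actagcagAAGCACAtctacaag
Srgap2, site at base 2829 of the 3′ UTR, chr1:131286514-131286536, minus strand: aaaatccaAAGCACAacttcaaa
The Robo1 match and the first Robo2 match are followed by an A, as is the one in Srgap2. Length sets how often such a match is found. The Robo1 UTR has 1733 bases, and 17.7% of 2567 genes with a UTR within 20% of that length held a match. The Robo2 UTR of 3520 bases held 2 matches, where 34.0% of 1608 genes of like length held at least 1. Robo3 held a match in only 343 bases, a length at which 3.23% of 1826 genes did. Srgap1 held none in 4407 bases, where 40.0% of 1087 genes did, and Robo4, Slit1 and Slit3 held none in 634, 192 and 365 bases. Among all 20748 genes with a 3′ UTR, 12.4% held the letters. A match is a description of sequence and not a measured site.

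RefSeq (GRCm38.p6) gave start sites for 8 of the 9 members, in 10 windows. Slit1 has no entry in the table used. The 250 bases before the start are shown for the receptor pair Robo1 and Robo2, which stand next to each other on chromosome 16 and varied together between mice, and for the ligands Slit2 and Slit3. Capitals mark matches on either strand to any of 8 short motifs. These were the box TATAAA of core promoters and the box GGGCGG bound by SP and KLF factors. For NR5A receptors the letters CAAGGTCA were searched and for forkhead factors the letters TGTTTAC. Those for GATA factors were AGATAA. AP-1 dimers were given TGANTCA, the ETS family ACTTCC and basic helix-loop-helix factors CACGTG.
Robo1 promoter, chr16:72662899-72663148, plus strand: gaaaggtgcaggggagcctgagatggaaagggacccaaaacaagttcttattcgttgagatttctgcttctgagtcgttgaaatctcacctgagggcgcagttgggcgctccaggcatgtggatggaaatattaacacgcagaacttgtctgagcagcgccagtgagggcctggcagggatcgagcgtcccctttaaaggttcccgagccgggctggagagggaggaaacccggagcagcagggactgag
Robo2 promoter, chr16:74411826-74412075, minus strand: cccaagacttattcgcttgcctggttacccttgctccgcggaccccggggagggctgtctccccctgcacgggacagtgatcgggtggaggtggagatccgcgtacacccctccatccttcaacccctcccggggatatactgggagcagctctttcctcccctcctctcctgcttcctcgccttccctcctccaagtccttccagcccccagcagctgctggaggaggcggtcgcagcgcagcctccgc
Slit2 promoter, chr5:47982905-47983154, plus strand: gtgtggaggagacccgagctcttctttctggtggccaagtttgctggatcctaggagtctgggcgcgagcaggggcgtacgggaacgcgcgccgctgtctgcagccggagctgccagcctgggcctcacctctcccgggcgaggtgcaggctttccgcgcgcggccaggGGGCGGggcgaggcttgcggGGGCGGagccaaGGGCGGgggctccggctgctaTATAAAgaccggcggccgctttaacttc
Slit3 promoter, chr11:35121206-35121455, plus strand: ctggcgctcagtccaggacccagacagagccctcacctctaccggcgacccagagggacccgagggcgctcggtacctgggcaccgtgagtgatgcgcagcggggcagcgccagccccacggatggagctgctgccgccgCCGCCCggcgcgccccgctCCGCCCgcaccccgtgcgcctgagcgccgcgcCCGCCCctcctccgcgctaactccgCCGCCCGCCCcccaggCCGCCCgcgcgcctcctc
The printed Robo1 and Robo2 windows held none of these letters. The Slit2 window held TATAAA once and GGGCGG 3 times, and the Slit3 window held GGGCGG 6 times, counting overlapping matches. Over the 10 member windows GGGCGG was found in 5 and TATAAA in 1, against 32.7% and 12.4% of 32851 RefSeq windows of that length. CG dinucleotides numbered 11 in the Robo1 window and 14 in the printed Robo2 window, 25 for Slit2 and 35 for Slit3, with a median of 6 over all windows (quartiles 2 and 16). Robo4, the endothelial receptor, had 2. The Robo1 start in RefSeq lies 354843 bases inside the gene as GENCODE draws it (chr16:72308306-73046095, plus strand), and Robo2 (chr16:73891839-74411825 in GENCODE, minus strand) has 2 further RefSeq starts, 680945 and 1035468 bases upstream of the printed one. The counts, which are per gene, do not tell these starts apart.

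Among the ligands, the genes that act first in the pathway, Slit3 led per kilobase of merged exons. By that measure Slit3 made up between 72.1% and 86.5% of the summed ligand level of a library, Slit2 between 10.1% and 21.6%, and Slit1 between 3.42% and 9.71%. These shares depend on the length used, since the merged exons have 25433 bases in Slit2 and 6067 in Slit3. Before division by length, Slit2 and Slit3 had means of 18.4 and 26.6 CPM in CNTR. In PAMH F3 these means were 18.51 and 17.4 CPM, with Slit2 the higher. With the median transcript length in place of merged exons, Slit3 stayed above Slit2. Slit3 (chr11:35121224-35708507, plus strand) had 21.2, 31.1 and 27.4 CPM in CNTR replicates 1 to 3. In PAMH F3 replicates 1 to 4 it had 25.1, 15.3, 13.7 and 15.3 CPM. In all, 3 of the 4 PAMH F3 libraries were below every CNTR library, while PAMH F3 replicate 1 lay inside the CNTR range. Means were 26.6 ± 5.00 CPM (SD, n = 3) and 17.4 ± 5.22 CPM (SD, n = 4), and the log2 fold change was -0.55 ± 0.25 (SE). With 1 library left out it ran from -0.765 (without CNTR replicate 1) to -0.40 (without PAMH F3 replicate 3), and it was -0.73 without PAMH F3 replicate 1.

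The sums of 5 marker lists are given beside Slit3. In each, most members had a lower mean in PAMH F3, as Slit3 did, and nothing is read from that shared direction. Other lists, named below, met the same condition. The 6 stroma markers summed to 1609, 1675 and 1672 CPM in CNTR and to 1585, 1590.2, 1384 and 1254 CPM in PAMH F3, and 5 of the 6 had a lower mean in PAMH F3. These sums did not overlap between groups, but 1609 and 1590.2 CPM stood close. Taken singly, 0 of the 6 stroma markers had every PAMH F3 library below every CNTR library. The 5 luteal markers summed to 1819, 1756 and 3170 CPM in CNTR and to 2049, 1221, 1501 and 1681 CPM in PAMH F3, and 4 of the 5 had a lower mean in PAMH F3. The 6 smooth muscle and pericyte markers summed to 1098, 1569.8 and 1414 CPM in CNTR and to 1368, 1319.9, 1203 and 877 CPM in PAMH F3, with 6 of the 6 means lower. In the fit that gave the Slit3 fold change, 4 of the 6 stroma markers and 4 of the 6 smooth muscle markers were below 0, and 2 of each list above. The stroma and smooth muscle sums ranked the CNTR libraries as Slit3 did, and the luteal, endothelial and adipocyte sums did not. That ranking was not particular to stroma and smooth muscle. Neuron sums (24.0, 28.1 and 26.6 CPM) and leukocyte sums (111, 126 and 119 CPM) ranked CNTR replicates 1 to 3 the same way. The 7 endothelial markers summed to 334, 305 and 319.5 CPM in CNTR and to 339.6, 262, 253 and 283 CPM in PAMH F3, and the 4 adipocyte markers to between 121 and 345 CPM and between 52.0 and 249 CPM, with 7 of the 7 and 4 of the 4 means lower. PAMH F3 replicate 1, the highest of its group in Slit3, was also the highest of its group in the luteal, smooth muscle, endothelial and leukocyte sums. The stroma sum was highest in replicate 2 of that group and the adipocyte sum in replicate 3 (249 CPM, against 113 CPM in replicate 1). Most markers also had a lower mean in PAMH F3 in the granulosa (4 of 7), oocyte (4 of 5), neuron (3 of 4) and Schwann cell (3 of 4) lists. Most had a higher mean in the oviduct epithelium (4 of 5), theca (2 of 3) and leukocyte (3 of 5) lists, and 2 of 4 did in surface epithelium. No marker of these lists was at 0 in all libraries, and their part in the Slit3 values was not tested.

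Slit2 (chr5:47983138-48307733, plus strand), the ligand best known from axon repulsion at the midline, did not separate the groups. It had 22.7, 15.2 and 17.4 CPM in CNTR and 24.0, 18.2, 17.2 and 14.6 CPM in PAMH F3. The highest library of each group was its replicate 1, and the group means, 18.4 ± 3.87 (SD, n = 3) and 18.51 ± 3.98 CPM (SD, n = 4), lay within 1 SD of each other. The log2 fold change of -0.11 ± 0.16 (SE) took a positive sign, 0.21, without CNTR replicate 1. Slit1 (chr19:41600257-41743665, minus strand) was close to the bottom of the counts, with 1.08, 1.20 and 1.76 CPM in CNTR and 1.62, 0.873, 1.17 and 1.98 CPM in PAMH F3. These are 29 to 63 counts per library, and the groups overlapped throughout, with a log2 fold change of 0.08 ± 0.27 (SE).

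**Figure D1:**
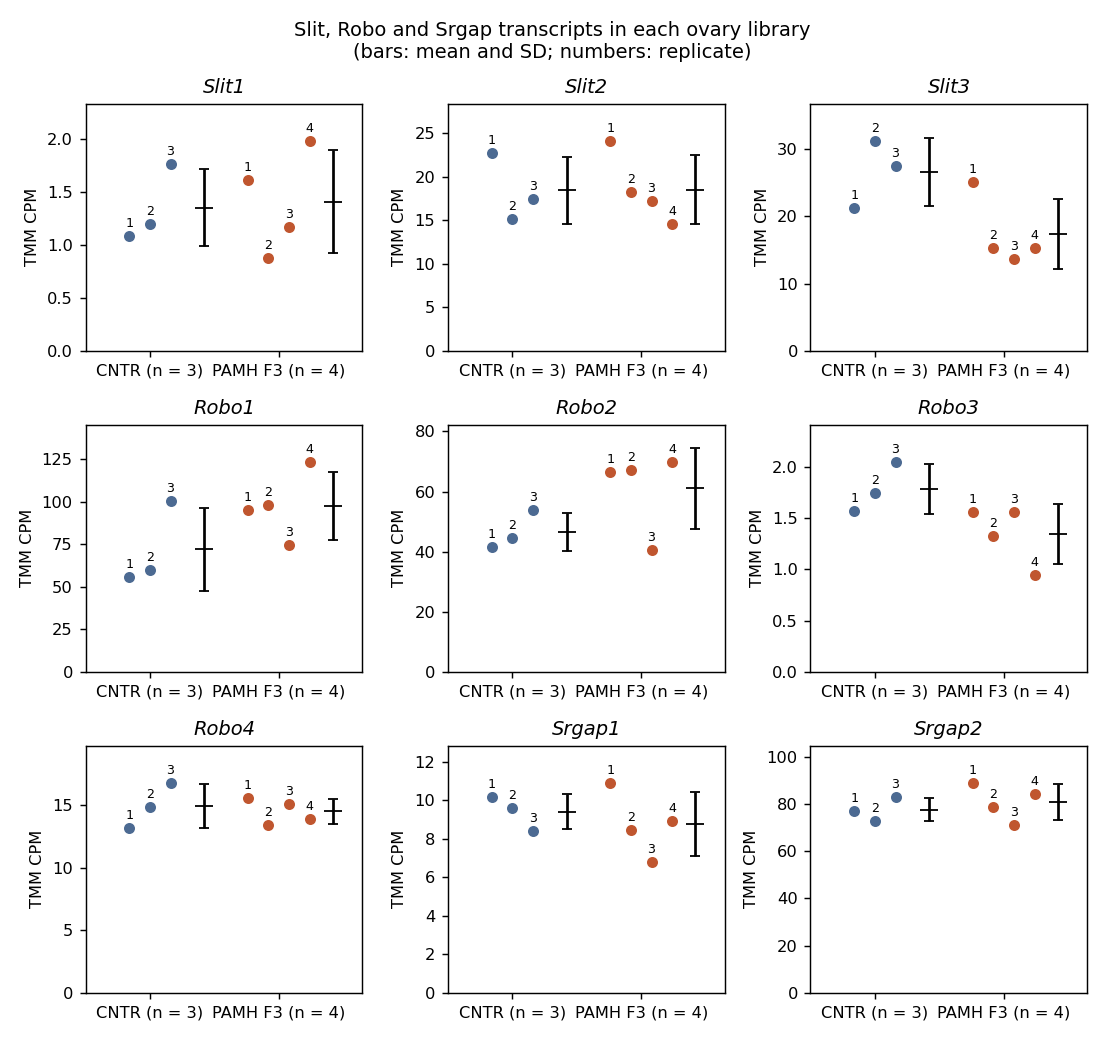
Level of the 9 genes in each of the 7 ovary libraries, in TMM CPM on linear axes that start at 0. Points are libraries numbered by replicate (blue CNTR, orange PAMH F3), and the bars beside them are the group mean and SD. Robo1 and Robo2 had higher means in PAMH F3 (97.7 against 72.0 CPM and 61.0 against 46.6 CPM) and Slit3 a lower one (17.4 against 26.6 CPM), with overlap of the groups in each gene.

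Among the receptors, Robo1 led with 39.0% to 52.1% of the summed receptor level per kilobase in a library, followed by Robo2 with 24.0% to 31.4% and Robo4 with 18.3% to 30.1%, while Robo3 made up 0.959% to 2.73%. The receptor shares too depend on the length used, with merged exons of 16511 bases in Robo1, 16983 in Robo2 and 5302 in Robo4. Before division by length, their means over all libraries were 86.7, 54.9 and 14.7 CPM. Robo1, a receptor that makes axons responsive to SLIT, had 55.9, 60.0 and 100.2 CPM in CNTR replicates 1 to 3. In PAMH F3 replicates 1 to 4 it had 95.3, 97.9, 74.3 and 123 CPM. CNTR replicate 3 was higher than 3 of the 4 PAMH F3 libraries, and CNTR replicates 1 and 2 were lower than all 4. The means were 72.0 ± 24.5 CPM (SD, n = 3) and 97.7 ± 19.99 CPM (SD, n = 4). The log2 fold change was 0.51 ± 0.07 (SE) with 2 surrogate variables (unlabelled axes of variation estimated from all genes) and 0.44 without them. This SE is the error left after the surrogate variables, which were estimated from the same libraries, and not the spread between mice. Between mice of a group the SD was 0.37 in log2 CPM. The fold change ranged from 0.30 without CNTR replicate 1 to 0.61 without CNTR replicate 3. Correction for GC content, fitted without surrogate variables, gave 0.40, beside the 0.44 without either. The 7 granulosa markers summed to 2286, 2610.4 and 3492 CPM in CNTR and to 2463, 2745, 2864 and 3476 CPM in PAMH F3, and 3 of the 7 had a higher mean in PAMH F3. This sum was highest in CNTR replicate 3 and PAMH F3 replicate 4, as was Robo1. The theca sum was highest in the same libraries (3614 and 3037 CPM), so the match was not particular to granulosa markers. Within PAMH F3 the granulosa sum was lowest in replicate 1, and Robo1 in replicate 3. Of these 7 markers, Hsd17b1, an estradiol-forming enzyme gene, had the largest rise, with 140, 155 and 248 CPM in CNTR and 189, 212, 212 and 288 CPM in PAMH F3. The other way went 4 of the 7, Foxl2, Amh, Fshr and Cyp19a1, with lower means in PAMH F3. Foxl2 and Amh had log2 fold changes of -0.24 and -0.34. For Fshr and Cyp19a1 the fit with surrogate variables gave 0.003 and 0.09, so that by this fit 5 of the 7 were above 0 and 2 below. The part of granulosa cells in the Robo1 values was not tested.

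Robo2, the receptor that often acts beside Robo1, lies 845743 bases from it. It had 41.6, 44.5 and 53.8 CPM in CNTR and 66.5, 67.1, 40.7 and 69.7 CPM in PAMH F3. Of the 4 PAMH F3 libraries, 3 were above every CNTR library, and PAMH F3 replicate 3 was below every one of them. The means were 46.6 ± 6.36 CPM (SD, n = 3) and 61.0 ± 13.6 CPM (SD, n = 4), with a log2 fold change of 0.38 ± 0.15 (SE) that ran from 0.28 without CNTR replicate 1, or without PAMH F3 replicate 2, to 0.55 without PAMH F3 replicate 3. Both Robo1 and Robo2 were at their lowest in the same PAMH F3 library, replicate 3, and at their highest in replicate 4 of that group. After removal of the group means, their log2 CPM had a Pearson r of 0.80 over the 7 libraries, the second highest of the 36 pairs of members after Robo2 with Srgap2 (0.83). These values share their libraries and are a description.

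Robo3 (chr9:37415669-37433246, minus strand), a divergent receptor that lets commissural axons cross the midline, and Robo4 (chr9:37401897-37415115, plus strand), the receptor of blood vessel endothelium, lie 553 bases apart. Robo3 had 1.57, 1.74 and 2.04 CPM in CNTR and 1.56, 1.33, 1.56 and 0.941 CPM in PAMH F3. It was the 1 member whose groups did not overlap, but CNTR replicate 1 and PAMH F3 replicate 3 differed by less than 0.01 CPM and had 52 and 56 counts. Its log2 fold change was -0.35 ± 0.26 (SE), and -0.16 without PAMH F3 replicate 4 or -0.17 without CNTR replicate 3. Every PAMH F3 library was below every CNTR library for 2.4% of the 18779 genes, above for 1.85% and one or the other for 4.25%. Nothing is read from the member's place among them.

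Robo4 had 13.2, 14.9 and 16.7 CPM in CNTR and 15.6, 13.4, 15.1 and 13.9 CPM in PAMH F3, with means of 14.9 ± 1.77 (SD, n = 3) and 14.5 ± 0.997 CPM (SD, n = 4). Its log2 fold change was 0.01 ± 0.11 (SE), and -0.04 without surrogate variables. The endothelial marker sums given above had lower means in PAMH F3 for 7 of the 7 markers. Pecam1, which encodes the endothelial adhesion protein CD31, had a log2 fold change of -0.44. The part of endothelium in the level of Robo4 was not tested.

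The srGAP genes had unlike levels and small differences. Srgap2 (chr1:131285251-131527352, minus strand), whose product limits Rac1 and bends membranes during neuronal migration, had 77.0, 72.8 and 82.7 CPM in CNTR and 88.7, 78.6, 71.1 and 84.2 CPM in PAMH F3. Its highest library was 1.25 times its lowest, the narrowest range of the 9 members, and its log2 fold change was 0.03 ± 0.07 (SE). Srgap1 (chr10:121780991-122047315, minus strand), whose product acts on Cdc42, had 10.2, 9.60 and 8.42 CPM in CNTR and 10.9, 8.43, 6.81 and 8.94 CPM in PAMH F3. Both genes were lowest in PAMH F3 replicate 3 and highest in PAMH F3 replicate 1. The log2 fold change of Srgap1 was -0.17 ± 0.18 (SE), and ran from -0.29 without CNTR replicate 3 to -0.03 without PAMH F3 replicate 3.

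**Figure D2:**
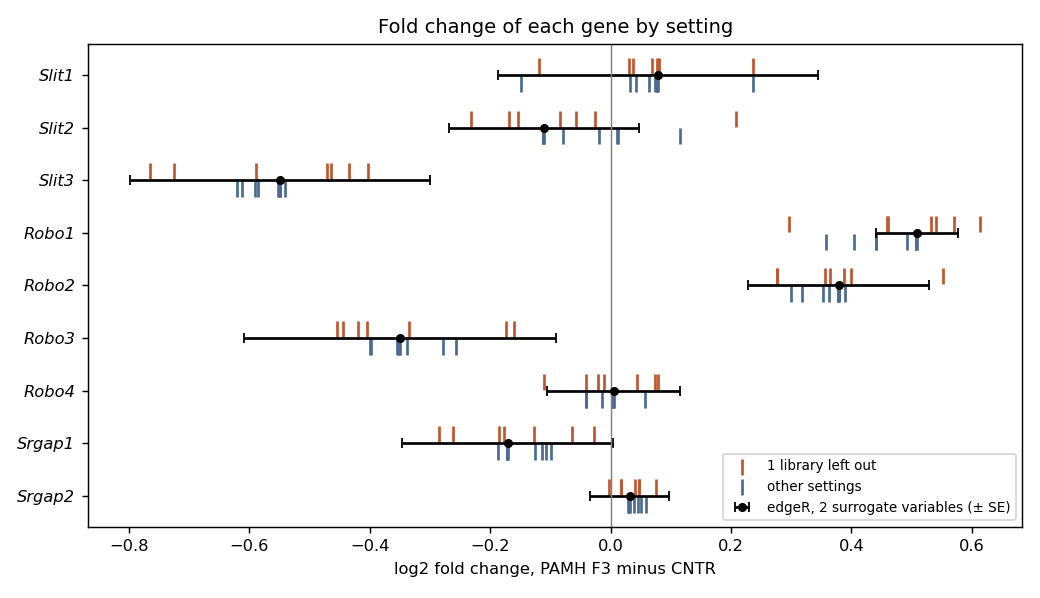
log2 fold change (PAMH F3 minus CNTR) of each member, with the edgeR value and its SE as black points and bars. Ticks above the line are fits with 1 library left out and ticks below are the other settings. Robo1 and Robo2 stayed above 0 (lowest 0.30 and 0.28) and Slit3 below 0 (highest -0.40) in the 16 alternatives, while Slit1, Slit2, Robo4 and Srgap2 fell on both sides.

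Counted over the 9 members, 5 had a log2 fold change above 0 and 4 below, with a median of 0.01, equal to the 0.01 over all genes tested. By edgeR's quasi-likelihood test with Benjamini-Hochberg adjustment over 18779 genes, 0 of the 9 passed an adjusted p of 0.05, where the share of all genes was 0%, and 2 of the 9 (Robo1 and Robo2, both higher in PAMH F3) had an unadjusted p under 0.05, against 7.63% of all genes. DESeq2, fitted with the same covariates, called 1 of the 9, Robo1, at an adjusted p of 0.05, against 0.762% of the 14046 genes to which it gave an adjusted p. The members were chosen with this contrast known, so nothing is read from these counts.

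The spread between mice was not alike among members. The biological coefficient of variation, the spread that edgeR estimates beyond counting noise, was 0.206 for Robo1, 0.175 for Robo2 and 0.212 for Slit3. Genes of similar abundance (within 0.25 in mean log2 CPM) had medians of 0.102 (1382 genes), 0.109 (1610 genes) and 0.137 (1239 genes). Srgap2 had 0.102 beside a median of 0.103, and Robo4 had 0.132 beside 0.152. Robo1, Robo2 and Slit3, the members above 10 CPM with the largest differences between groups, were thus also those whose spread lay farthest above that of genes at their level.

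Levels per kilobase of merged exons put the 9 genes in an order that the choice of members did not use. Srgap2 came first with 6.31 ± 0.502 CPM per kilobase (SD, n = 7), then Robo1 with 5.25 ± 1.47, Slit3 with 3.51 ± 1.12, Robo2 with 3.23 ± 0.757 and Robo4 with 2.77 ± 0.239. Srgap1 with 0.990 ± 0.147, Slit2 with 0.726 ± 0.141, Slit1 with 0.234 ± 0.0681 and Robo3 with 0.224 ± 0.0499 followed. Of the 8 pairs of neighbours, 3 differed beyond the spread of the libraries, each in 7 of 7 libraries with an adjusted p of 0.0417 (exact permutation test over sign changes, two-sided, raw p 0.0156, the smallest that 7 libraries allow). These were Robo4 over Srgap1 by 1.49 ± 0.27 (log2 ratio, SD), Srgap1 over Slit2 by 0.45 ± 0.25 and Slit2 over Slit1 by 1.67 ± 0.55. The pairs from Srgap2 down to Robo4, and Slit1 with Robo3, did not differ beyond their spread (adjusted p between 0.125 and 0.938 by the same exact permutation test). By merged exons, 5 members thus lay between 2.77 and 6.31 CPM per kilobase and 4 under 1. With the median transcript length in place of merged exons, Slit2 moved above Srgap1, Robo4 below it and Robo3 above Slit1, so the order of these genes depends on the length used. The pairs Robo4 over Srgap1 and Srgap1 over Slit2 were thus reversed, and Robo4 left the upper group. The permutation test cannot cover this choice, since all libraries share the same length for a gene.

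**Figure D3:**
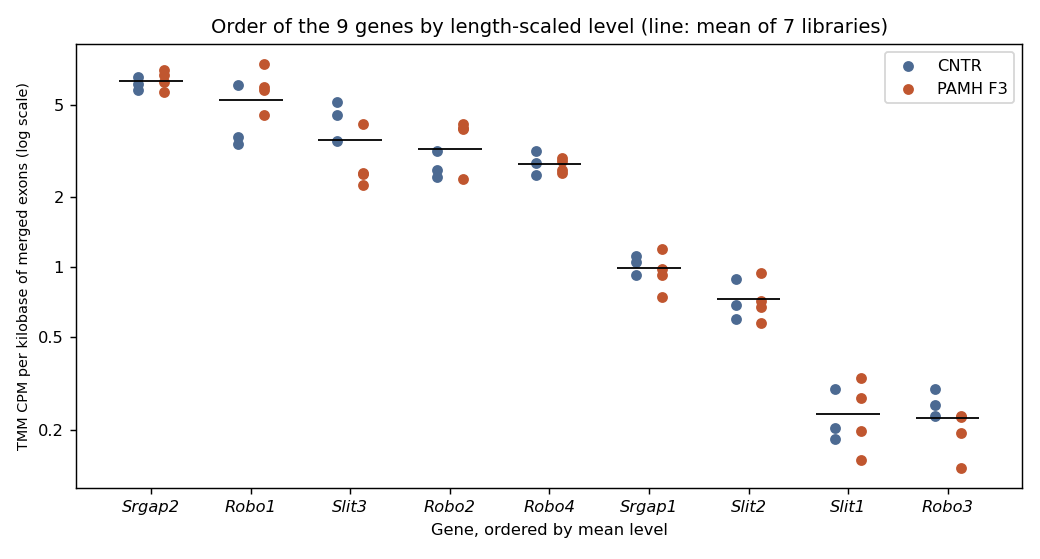
TMM CPM per kilobase of merged exons for each member on a log axis, ordered by the mean of the 7 libraries (line). Points are libraries (blue CNTR, orange PAMH F3). By this length the fall from Robo4 (2.77) to Srgap1 (0.990) and from Slit2 (0.726) to Slit1 (0.234) was seen in 7 of 7 libraries. With the median transcript length Robo4 came below Srgap1.

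Each member was also set against all other tested genes by the Pearson r of log2 CPM with group means removed, over the 7 libraries. The closest were Luc7l2 and Plekha8 for Robo1, Gm37226 and Rmc1 for Robo2, Pnmt and Gm44645 for Robo3, and Ccnjl and Pnmal2 for Robo4. For the ligands they were Wdcp and Slc9a4 for Slit1, Lrrn4cl and Scn2b for Slit2, and Ogdh and Ntng2 for Slit3. Adora1 and Gal3st2c came first for Srgap1, and Timp1 and Ankhd1 for Srgap2. Their r values ran from 0.972 to 0.997, each the highest among all other tested genes over few libraries, and are a description of these libraries. No member was the closest gene of another.

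Further genes of the pathway came from a list of 46 partners, all of which passed the filter. It held other srGAPs (Srgap3 with 74.2 CPM in CNTR and 77.1 CPM in PAMH F3), ROBO-bound adaptors and kinases, heparan sulfate proteoglycans and the enzymes that build their chains. By edgeR's quasi-likelihood test 0 of the 46 passed an adjusted p of 0.05 in either direction, and DESeq2 called 0. An unadjusted p under 0.05 was reached by 3 of the 46, or 6.52%, and DESeq2 reached it for 3. These 3 were lower in PAMH F3 and 0 were higher, against 3.74% of all genes lower and 3.89% higher. They were Cxcl12, the chemokine whose pull on leukocytes SLIT can block, and the heparan sulfate proteoglycans syndecan-1 (Sdc1) and glypican-1 (Gpc1).

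Cxcl12 had 214, 116 and 73.1 CPM in CNTR and 121, 69.2, 70.4 and 48.4 CPM in PAMH F3, with overlap of the groups and a log2 fold change of -0.95 ± 0.24 (SE, edgeR unadjusted p = 0.00535, adjusted p = 0.522). Sdc1 had 158, 198 and 186 CPM in CNTR and 157, 137, 145 and 145 CPM in PAMH F3. The groups did not overlap, but CNTR replicate 1 and PAMH F3 replicate 1 stood close, at 157.5 and 156.5 CPM. The log2 fold change of Sdc1 was -0.24 ± 0.08 (SE, edgeR unadjusted p = 0.0142, adjusted p = 0.564). Gpc1 had a log2 fold change of -0.35 ± 0.15 (SE, edgeR unadjusted p = 0.0495, adjusted p = 0.654). The kinase gene Pak2 was the other partner without overlap, between 170 and 177 CPM in CNTR and between 181 and 184 CPM in PAMH F3, and was picked out after its values were seen. Groups without overlap were thus found for 2 of the 46 partners, beside 4.25% of all genes, and nothing is read from them. The most abundant partners were Nedd4, a ubiquitin ligase (1693 ± 167 CPM in the 3 CNTR libraries and 1769 ± 242 CPM in the 4 of PAMH F3, SD), Dag1, which encodes the SLIT-binding dystroglycan, and Cdc42, the small GTPase. The median log2 fold change of the list was -0.01, beside 0.01 over all genes, and the median size was 0.07, beside 0.10.

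The other guidance systems were followed through 16 netrin system genes, of which 15 passed the filter, and 31 semaphorin and plexin genes, of which 31 did. By edgeR 0 of the 46 passed an adjusted p of 0.05, where the share of all genes was 0%. DESeq2 called 2, beside 0.762% of the 14046 genes to which it gave an adjusted p. These were Rgmb (DESeq2 adjusted p = 0.0157) and Sema6c (DESeq2 adjusted p = 0.00889), the latter also among the genes that the study called. An unadjusted p under 0.05 was reached by 9 of the 46, or 19.6%, beside 7.63% of all genes, and by 8 with DESeq2. Whether that share differs from the share over all genes was not tested, and both shares were lower in fits without surrogate variables. These gave 6 of 46 beside 3.89% of all genes, 5 of 46 beside 3.99% with GC correction, and 3 of 46 beside 2.35% with a replicate block.

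Of the 31 semaphorin system genes, 16 had a log2 fold change above 0 and 15 below, 0 passed the adjusted test in edgeR, and 5 higher and 1 lower genes had an unadjusted p under 0.05. That balance was not stable, since over the netrin and semaphorin genes together 6 were higher and 3 lower, but 2 and 4 without surrogate variables and 2 and 5 without CNTR replicate 1. Sema6c, which encodes a transmembrane semaphorin, had 9.91, 17.2 and 18.9 CPM in CNTR and 17.4, 17.9, 17.9 and 19.8 CPM in PAMH F3, so that only CNTR replicate 1 stood below the PAMH F3 range by more than 1 CPM. Its log2 fold change was 0.47 ± 0.08 (SE, edgeR unadjusted p = 0.000691, adjusted p = 0.369). Sema5a, Sema3g, Sema3c and Sema3b had log2 fold changes of 0.40 ± 0.12, 0.37 ± 0.09, 0.32 ± 0.12 and 0.25 ± 0.10 (SE), with edgeR unadjusted p between 0.00482 and 0.0452 and overlapping groups. Sema3f, a secreted semaphorin that acts through neuropilin-2, was lower, with 26.4, 40.0 and 27.3 CPM in CNTR and 23.7, 21.7, 26.1 and 18.0 CPM in PAMH F3 and no overlap. The plexin genes Plxnb2 and Plxnb1 were among the most abundant, at 356 ± 37.7 and 243 ± 25.7 CPM (SD, n = 3) in CNTR, and had log2 fold changes of -0.01 and 0.03.

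Of the 15 netrin system genes tested, 7 had a log2 fold change above 0 and 8 below, 0 passed the adjusted test in edgeR, and 1 higher and 2 lower genes had an unadjusted p under 0.05. Rgmb, which encodes a neogenin ligand and BMP co-receptor, had 75.8, 73.2 and 48.2 CPM in CNTR and 78.4, 85.1, 92.03 and 70.3 CPM in PAMH F3, which gave a log2 difference of 0.31 ± 0.05 (SE, edgeR unadjusted p = 0.000735, adjusted p = 0.369). Its paralog Rgma had a log2 fold change of -0.41 ± 0.14 and Draxin, which encodes a netrin-binding repellent, -0.66 ± 0.23 (SE), both without overlap of the groups. With Sema3f, 3 of the 46 netrin and semaphorin system genes had groups without overlap, beside 4.25% of all genes. Draxin was near the floor of the counts, with means of 1.01 CPM in CNTR and 0.628 CPM in PAMH F3. Neo1, the gene of the receptor neogenin, and Ntn4, a laminin-like netrin gene, were the most abundant besides Rgmb and had log2 fold changes of 0.04 and 0.05.

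**Figure D4:**
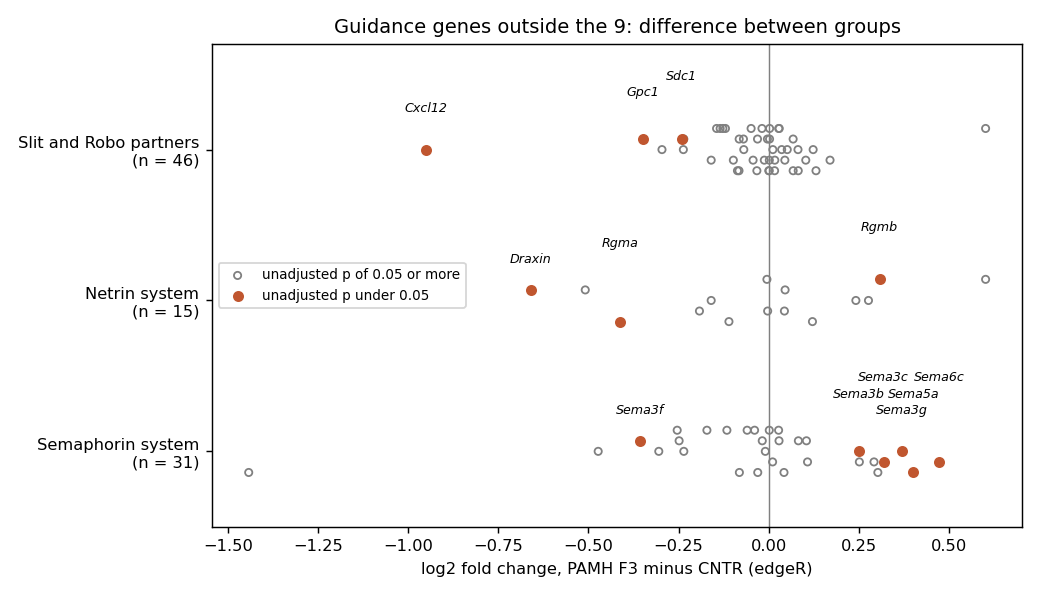
log2 fold change (PAMH F3 minus CNTR, edgeR) of 46 Slit and Robo partners, 15 netrin system genes and 31 semaphorin system genes. Filled points have an unadjusted p under 0.05 and are named, open points do not, and 3 genes stand in more than 1 list. Named genes lay to the left of 0 for 3 of 3 partners and to the right for 5 of 6 semaphorin system genes.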

How the data were processed

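Poly(A) RNA of mouse ovaries (3 CNTR, 4 PAMH F3) was sequenced by the authors from strand-specific libraries, 1 per mouse. Per the submitters' processing notes, bcl2fastq 2.17.1.14, STAR 2.5.3a and HTSeq 0.6.1p1 were used with mm10. The authors deposited raw counts per gene, without normalization. The summary lines, between 45.8% and 47.5% of a file's total (mostly alignments that were not unique), were left out. The Ensembl release is not given in the sources used here, and identifiers were named through GENCODE M21 (55394 of 55487 matched).

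Levels are TMM CPM over all gene rows. Differences were fitted in edgeR 4.0.16 (quasi-likelihood, Benjamini-Hochberg adjustment, filterByExpr with a minimum count of 10) with 2 surrogate variables from sva 3.50.0, after the study's design, which uses surrogate variables. DESeq2 1.42.0 was an alternative, with fits that changed the surrogate variables, scaling, filter, robustness, replicate block, GC correction (added after seeing the data) or libraries. The fits were tested on simulated data. No pair of libraries in a group agreed within sampling noise. Log2 CPM used a prior count of 2.

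The members and gene lists were chosen with earlier results of these data known. Named genes were the 9 members, list genes with an unadjusted p under 0.05, the 3 most abundant of each list, and the 2 genes most like each member. Genes annotated within the members had at most 35 counts in all libraries together. Sequences came from RefSeq (GRCm38.p6) and GENCODE M21 tables.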

Additional observations from a re-analysis of the deposited data

Results flagged for a closer look

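Among 28 genes examined in the 4 PAMH F3 libraries, 2 had a single library far from the other 3 by Dixon's ratio of gap to range, past its 95% critical value, where chance alone picks out about 1 group in 20. Slit3 had 25.1 CPM in PAMH F3 replicate 1, with the other libraries between 13.7 and 15.3 CPM (ratio 0.857). Robo2 had 40.7 CPM in PAMH F3 replicate 3, with the others between 66.5 and 69.7 CPM (ratio 0.891). The libraries are different ones. Each lay on the CNTR side of its group, so the wider group difference of that gene without it followed from its place and adds nothing. CNTR, with 3 libraries, was not examined in this way.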

How the results depend on the processing

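The number of genes called by edgeR at an adjusted p of 0.05 was 0, against 107 with DESeq2 and 8 without a filter, and it ran from 0 to 37 when single libraries were left out (37 without CNTR replicate 1, 31 without PAMH F3 replicate 1). It was 0 with the replicate block and with GC correction, both fitted without surrogate variables. Partners with an unadjusted p under 0.05 numbered 3, 1 with GC correction (2 without surrogate variables alone) and 1 to 7 with a library left out (7 without CNTR replicate 1 or PAMH F3 replicate 1, 6 without CNTR replicate 3, 1 without PAMH F3 replicate 2). Netrin and semaphorin system genes numbered 9, 5 with GC correction, 3 with the replicate block and 6 to 14 with a library left out (14 without CNTR replicate 3 or PAMH F3 replicate 1), and 6 without surrogate variables alone. The share of all genes with an unadjusted p under 0.05 moved too: it was 7.63%, 3.89% without surrogate variables, 3.99% with GC correction, 2.35% with the replicate block, 17.1% without CNTR replicate 1, 8.68% without CNTR replicate 3, 10.6% without PAMH F3 replicate 1 and 4.28% without PAMH F3 replicate 2. The cause was not tested. Equal replicate numbers did not pair the mice: their deviations from the group mean correlated with r of 0.0957, 0.0965 and -0.248, and not every library correlated best with its own number. Of the neighbouring members in the order of levels, 3 pairs passed with merged exons, 4 with median transcript lengths and 0 with any library left out, since 6 libraries cannot reach an adjusted p of 0.05 for so few pairs. The order by median transcript length set partly other genes side by side, with Slit2 above Srgap1 and Srgap1 above Robo4. The fold changes of Robo1, Robo2, Robo3, Slit3 and Srgap1 kept their sign in 16 of 16 alternatives, that of Slit2 was negative in 12 and that of Robo4 positive in 9. Surrogate variables may carry biology as well as technique. Depth was alike in all libraries and limits mainly Slit1 and Robo3.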
